A study of Mus musculus with 18 samples.

Results

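The lectin-like receptor genes of natural killer (NK) cells that CD8 T cells can also carry were followed here across naive and memory CD8 T cells: Klrd1, Klrc1, Klrc2, Klrg1 and Klrb1c. These 5 genes, of 19324 gene symbols on the array, were chosen by symbol, and every probe set annotated with 1 of their symbols and no other was taken. This gave 5 of the 45101 probe sets: 1 for Klrd1, 2 for Klrc1, 1 for Klrc2 and 1 for Klrg1. Klrb1c had no probe set of its own and appeared only on a probe set shared with Klrb1b, and Klrc2 also appeared on a probe set shared with Klrc3.

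All cells were CD8 T cells sorted from the spleens of F5 T cell receptor transgenic mice, whose genotype is given as C57Bl/6. The 18 arrays form 8 groups. Memory cells came from mice given the NP68 peptide in a pair of immunisations and were taken at day 45. They were cultured for 20 hours with IL-4 at 20 ng/mL plus IL-7 at 10 ng/mL (2 arrays), with IL-7 (2 arrays), with IL-4 (2 arrays) or in medium (2 arrays), or were processed ex vivo (4 arrays). Naive cells were cultured for 20 hours with IL-4 plus IL-7 (2 arrays) or IL-7 (2 arrays), or were processed ex vivo (2 arrays). The wording of the source labels of the naive arrays names both cell types, so the titles set the groups. Age and sort gates were not given in the sources used here. A transgenic receptor of a single specificity is carried by all of these cells, so the groups model cells of a single specificity. The design text has the cultured cells of each type come from 2 sorted populations, but no label ties a replicate number to a population or says that arrays of a group came from separate animals, so p-values measure only the spread between these arrays.

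Klrd1 encodes CD94, an invariant subunit that reaches the cell surface as a disulfide-linked pair with a member of the NKG2 family. With NKG2A, encoded by Klrc1, it forms an inhibitory receptor, and with NKG2C, encoded by Klrc2, it forms an activating one that signals through an adaptor. Both pairs bind the non-classical class I molecule Qa-1 loaded with a peptide cut from the leader of other class I molecules. KLRG1 is an inhibitory receptor for cadherins found on differentiated effector and memory CD8 T cells. Klrb1c encodes NKR-P1C, an activating receptor that in C57BL/6 mice carries the NK1.1 epitope.

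RMA signals are given in log2 units, where 1 unit is a doubling. A probe set was tested when at least 2 arrays exceeded 4.06, the value under which 40% of all measurements fall. This kept 29843 probe sets. It is a percentile, not a measured background, so a level under it is called near background only in that sense. Array medians lay between 4.62 and 4.76. CD8 T cell markers had array means of 11.53 to 12.01 in the 8 groups (7 of 8 listed genes with a probe set of their own). Memory CD8 markers had array means of 9.10 to 9.56 in memory cells ex vivo, against 6.00 to 6.01 in naive cells ex vivo (11 of 12 genes). In culture they were 8.47 and 8.60 in memory cells with IL-4 plus IL-7, against 7.80 and 7.88 with IL-7, and 8.57 and 8.49 with IL-4, against 7.97 and 9.34 in medium. In naive cells they were 5.21 and 6.39 with IL-4 plus IL-7, against 4.82 and 6.08 with IL-7, array 1 being the lower in both groups. Memory medium array 2 correlated best with ex vivo memory array 2 (Pearson r 0.991 over probe sets) and less with the other medium array (0.951). The Klrd1 differences between medium and other memory groups, and the IL-4 difference of Cdh1 without IL-7, are given with and without it. Other results that use it are given with all arrays, some with the range over fits that left out 1 array. Naive IL-4 plus IL-7 arrays 1 and 2 correlated best with the naive IL-7 array of the same number (0.975 and 0.988), above each other (0.969), and the memory arrays with IL-4 plus IL-7 with the same-numbered IL-4 arrays (0.992 and 0.991). Because these are bulk samples, fewer cells of a type and less RNA per cell cannot be told apart.

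Of the 5 probe sets, 3 passed the filter. Klrd1 was above 4.06 on 18 of 18 arrays, Klrg1 on 18 of 18, and the brighter Klrc1 probe set on 10, all of them memory arrays. The other Klrc1 probe set read 3.52 to 4.00 and the Klrc2 probe set 2.37 to 3.17, under the filter value on all 18 arrays, so neither was tested. The probe set shared by Klrc3 and Klrc2 read 2.66 to 3.10, and was under the filter value on every array as well. Klrc2 was therefore at the low end of the array's range wherever it was represented.

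Klrd1, the common subunit, was the bright member. Its mean lay at percentile 98.9 of all values in memory cells with IL-7 and at percentile 82.3 in naive cells with IL-4 plus IL-7, the lowest of its 8 groups. From high to low, its group means were 12.49 in memory cells with IL-7 (SD 0.000227, n = 2), 11.94 ± 1.11 in memory cells in medium (n = 2), 11.44 ± 0.15 in memory cells ex vivo (n = 4) and 11.30 ± 0.35 in naive cells ex vivo (n = 2). They went on with 10.73 ± 0.29 in naive cells with IL-7, 9.71 ± 0.68 in memory cells with IL-4 plus IL-7, 9.66 ± 0.39 in memory cells with IL-4 and 8.30 ± 0.02 in naive cells with IL-4 plus IL-7 (SD, n = 2 each). The 3 groups that had received IL-4 held the 3 lowest places. Ranges of neighbours in this order overlapped at 4 of the 7 steps. They did not overlap between naive cells ex vivo and with IL-7, between naive cells with IL-7 and memory cells with IL-4 plus IL-7, and between memory cells with IL-4 and naive cells with IL-4 plus IL-7.

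**Figure D1:**
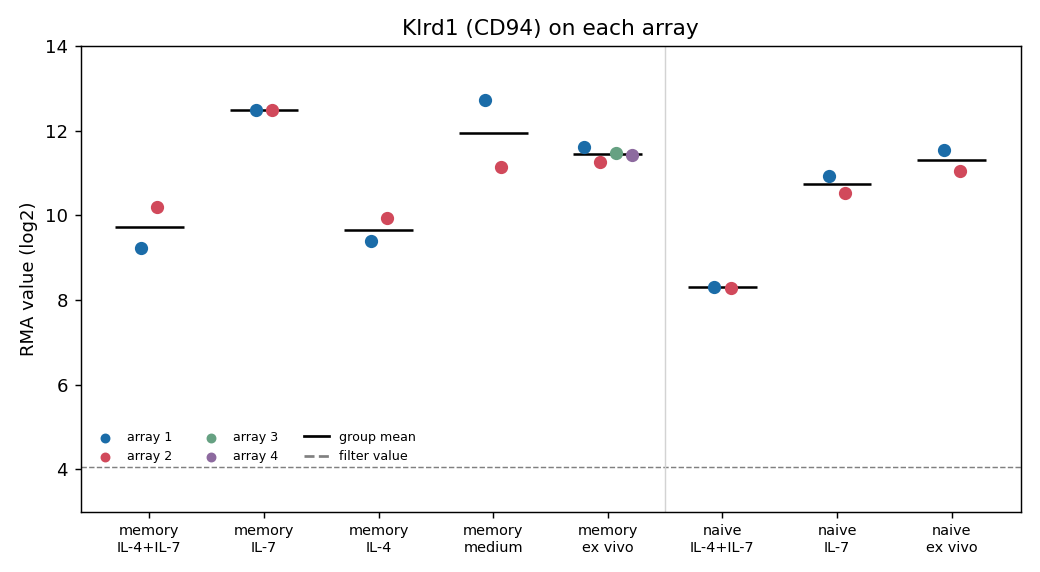
Klrd1 RMA values (log2, vertical axis) on each of the 18 arrays in the 8 groups (horizontal axis), with points for arrays, black bars for group means and a dashed line at the filter value of 4.06. Memory arrays are left of the grey line and naive arrays right of it. The 6 arrays with IL-4 lie between 8.28 and 10.20 and the other 12 between 10.52 and 12.73.

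Whether IL-4 changed these receptor genes was asked in 3 comparisons that have no array in common. They share the estimate of the spread, and the memory comparisons may share sorted cell populations. They are therefore not independent repeats. In memory cells with IL-7, Klrd1 read 9.23 and 10.20 with IL-4, against 12.49 and 12.49 without it. Both arrays with IL-4 were lower, with a gap of more than 2 units between the groups. Klrd1 fell by 2.78 on the log2 scale (SE 0.41, 95% interval -3.66 to -1.89, limma adjusted p = 0.00379), which is 6.85-fold lower. In this comparison 1 of the 3 tested member probe sets passed the test, and 1.6% of all probe sets tested did.

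In memory cells without IL-7, Klrd1 read 9.38 and 9.94 with IL-4, against 12.73 and 11.15 in medium. The groups did not overlap, but the medium arrays lay far apart. Klrd1 fell by 2.28 (SE 0.41, 95% interval -3.16 to -1.39, limma adjusted p = 0.0148), or 4.85-fold. Without medium array 2 the difference was -3.07 (adjusted p = 0.000749), without medium array 1 it was -1.49 (adjusted p = 0.0123), and without IL-4 array 1 or 2 the adjusted p was 0.181 or 0.0574. Klrd1 was the 1 member called of the 3 tested, beside 1.15% of all probe sets.

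In naive cells with IL-7, Klrd1 read 8.31 and 8.28 with IL-4, against 10.94 and 10.52 without it. The arrays of each group lay close together and the groups were far apart. Klrd1 fell by 2.44 (SE 0.41, 95% interval -3.32 to -1.55, limma adjusted p = 0.0116), or 5.41-fold, and 0.68% of all probe sets passed here. The adjusted p was 0.186, 0.0584 and 0.0899 without naive IL-7 array 1, naive IL-7 array 2 or naive IL-4 plus IL-7 array 1. The size of the response was also compared between cell types and between culture conditions. The IL-4 difference in memory cells minus that in naive cells was -0.34 (SE 0.58, 95% interval -1.59 to 0.91, adjusted p = 0.862), where 0.0268% of all probe sets passed. The IL-4 difference in memory cells with IL-7 minus that without it was -0.50 (SE 0.58, 95% interval -1.75 to 0.75, adjusted p = 0.914), where 0% of all probe sets passed by limma and 1364 had an unadjusted p under 0.05. Leaving out 1 array, this last difference ran from -1.29 to 0.29, so its sign depended on the arrays kept. Neither difference passed, and both intervals hold 0 as well as differences of 1 log2 unit.

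**Figure D2:**
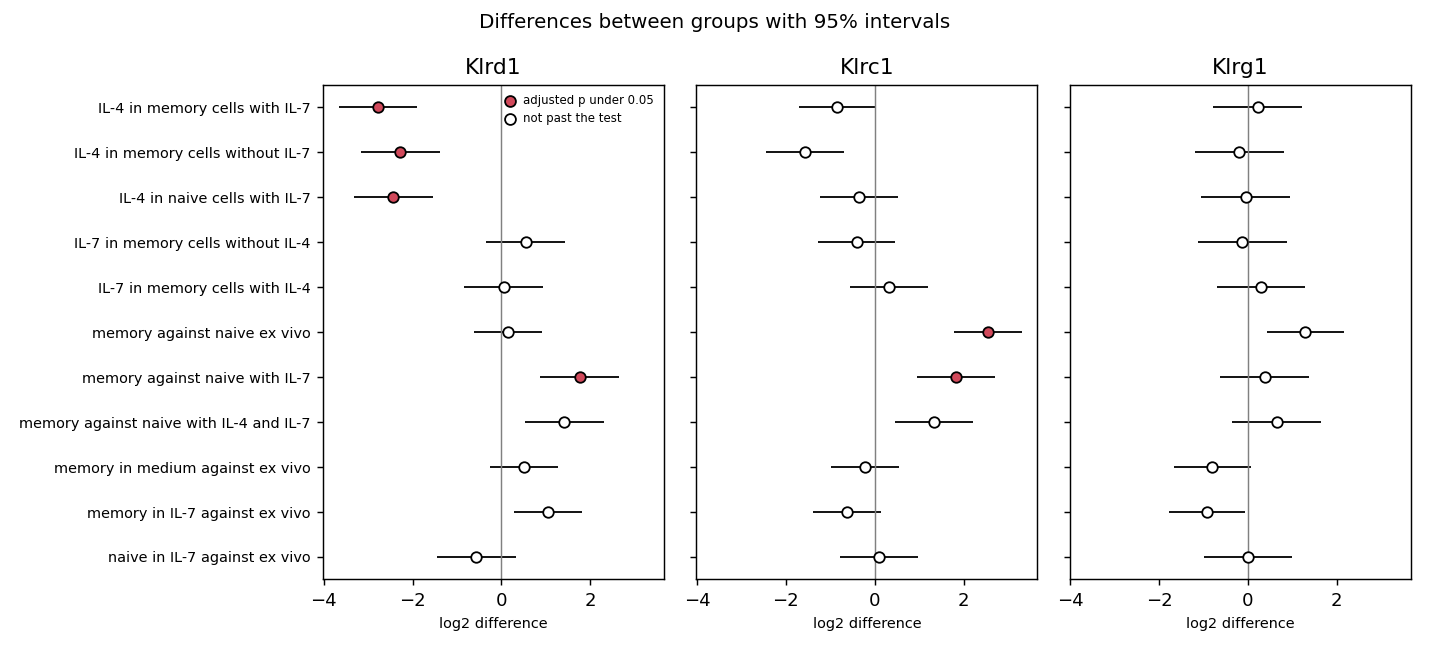
Log2 differences between groups (horizontal axis) for the tested probe sets of Klrd1, Klrc1 and Klrg1, 1 row per comparison, with the group named first minus the group named second, or with minus without the cytokine. Bars are 95% intervals and red points passed the test at an adjusted p under 0.05. Klrd1 lies between -2.78 and -2.28 in the 3 IL-4 comparisons, and Klrc1 is at 2.55 in memory against naive cells ex vivo.

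IL-7 gave no call for any member. Klrd1 read 12.49 and 12.49 in memory cells with IL-7, against 12.73 and 11.15 in medium, and the ranges overlapped (difference 0.55, 95% interval -0.34 to 1.44, adjusted p = 0.775). Without medium array 1 the difference was 1.34 (adjusted p = 0.0229), and without medium array 2 it was -0.24 (adjusted p = 1), so the sign depended on which medium array was kept. Among cells with IL-4, adding IL-7 gave a difference of 0.05 (95% interval -0.83 to 0.94, adjusted p = 1). The limma test called 0% of all probe sets in either IL-7 comparison, where 1896 and 548 probe sets had an unadjusted p under 0.05.

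Klrd1 levels of memory and naive cells were close when the cells were taken directly from the spleen. Klrd1 read 11.61, 11.25, 11.47 and 11.43 in memory cells ex vivo, against 11.54 and 11.05 in naive cells ex vivo. The ranges overlapped and the difference was 0.14 (SE 0.36, 95% interval -0.62 to 0.91, adjusted p = 0.869), where 1.24% of all probe sets passed. After 20 hours with IL-7 the groups were apart, at 12.49 and 12.49 in memory cells, against 10.94 and 10.52 in naive cells. Of the members, Klrd1 and Klrc1 passed the test, the latter by a probe set that passed the filter only through memory arrays. The Klrd1 difference was 1.76 (SE 0.41, adjusted p = 0.0431), 3.38-fold, where 2.14% of all probe sets passed. With no filter on low values its adjusted p was 0.0567, and over the fits that left out 1 array it ran up to 0.355.

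With IL-4 plus IL-7, Klrd1 read 9.23 and 10.20 in memory cells, against 8.31 and 8.28 in naive cells. The groups did not overlap, and the difference of 1.42 (95% interval 0.53 to 2.30, adjusted p = 0.0854) did not pass in a comparison where 2.5% of all probe sets did. Without memory medium array 2, which enters only through the spread, the adjusted p was 0.017.

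Against cells ex vivo, Klrd1 in memory cells with IL-7 lay above the 4 ex vivo arrays (12.49 and 12.49, against 11.25 to 11.61). The difference was 1.05 (SE 0.36, adjusted p = 0.0549), in a comparison where 18.9% of all probe sets passed. In naive cells with IL-7 it lay below the ex vivo arrays, at 10.94 and 10.52, against 11.54 and 11.05 (difference -0.57, 95% interval -1.45 to 0.32, adjusted p = 0.448, with 9.4% of all probe sets called). The change with culture in memory cells minus that in naive cells was 1.62 (95% interval 0.44 to 2.79, unadjusted p = 0.0105, adjusted p = 0.307), beside 0.0235% of all probe sets called. In memory cells in medium the difference from ex vivo was 0.50 (adjusted p = 0.653), and the sign again depended on the medium array kept: it was 1.29 (adjusted p = 0.0182) without medium array 2 and -0.29 (adjusted p = 0.999) without medium array 1. In that comparison limma called 0% of all probe sets, and 3010 had an unadjusted p under 0.05.

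Klrc1, the inhibitory partner, was above the filter value on 10 memory arrays, by its brighter probe set alone, and on none of the 6 naive arrays. Its brighter probe set read 5.72, 5.0, 5.02 and 5.55 in memory cells ex vivo, against 2.94 and 2.61 in naive cells ex vivo. All 4 memory arrays were more than 2 units above both naive arrays. The difference was 2.55 (SE 0.35, limma adjusted p = 0.00149), 5.86-fold, and it passed in every fit that left out 1 array (2.39 to 2.72, adjusted p up to 0.0447). The probe set passed the filter only through its memory arrays, so a difference from naive cells was partly built into its being tested. The other Klrc1 probe set, under the filter value on every array and not tested, averaged 3.83 in memory cells against 3.60 in naive cells ex vivo. With IL-7 it averaged 3.69 in memory cells, against 3.82 in naive cells, and with both cytokines 3.80 against 3.71.

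With IL-7, Klrc1 read 5.15 and 4.26 in memory cells, against 2.74 and 3.01 in naive cells. The difference of 1.83 (SE 0.41, adjusted p = 0.034), 3.55-fold, passed, and the adjusted p was 0.0631 to 0.362 without any 1 of these 4 arrays. With IL-4 plus IL-7 it read 4.23 and 3.50, against 2.72 and 2.34 in naive cells (difference 1.34, adjusted p = 0.0978). The memory arrays were the higher ones in all 3 comparisons, with no overlap. Because this probe set was tested only through its memory arrays, these differences are a description and not support for one another.

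With IL-4, the brighter Klrc1 probe set was lower in memory cells, but did not pass the test. Without IL-7, the arrays with IL-4 read 4.16 and 2.93, against 5.32 and 4.90 in medium (difference -1.56, SE 0.41, 95% interval -2.44 to -0.69, unadjusted p = 0.00188, adjusted p = 0.0943). With IL-7, those with IL-4 read 4.23 and 3.50, against 5.15 and 4.26 without IL-4 (difference -0.84, 95% interval -1.71 to 0.04, adjusted p = 0.363). The groups did not overlap in either comparison, in the second by a narrow gap, and the lower array of each pair with IL-4 was itself under the filter value. Leaving out 1 array, the difference without IL-7 ran from -2.18 (without IL-4 array 1) to -0.95 (without IL-4 array 2). The one with IL-7 was -1.28 without IL-7 array 2, -0.47 without IL-4 plus IL-7 array 2, and -0.39 when IL-7 array 1 was left out. In naive cells the IL-4 difference was -0.34 (adjusted p = 0.931), with both groups near background. Over its 8 groups, Klrc1 ran from 5.32 ± 0.37 in memory cells ex vivo (SD, n = 4) to 2.53 ± 0.27 in naive cells with IL-4 plus IL-7 (SD, n = 2). Of neighbours in this order, only memory cells with IL-7 and memory cells with IL-4 plus IL-7 had ranges that did not overlap.

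Klrc1 and Klrc2 are neighbours on chromosome 6, where the gene table of assembly GRCm38.p6 lists Klre1, Klrd1, Klrk1, Klrc3, Klrc2, Klrc1 and Klri1 as consecutive protein-coding genes. The promoters of Klrc1 and Klrc2 are shown from 250 bases before to 50 after the start. The brighter Klrc1 probe set was above the filter value on 10 of 12 memory arrays, and the Klrc2 probe set on none. The other Klrc1 probe set was above it on none as well, so a difference in detection between these adjacent paralogues was not established. The RefSeq promoter table of GRCm38.p6 holds 3 of the 5 members. The Klrc1 window is chr6:129678924-129679223 and the Klrc2 window, 1 of 2 listed starts, is chr6:129660547-129660846, both on the minus strand and written 5′ to 3′. Capitals mark matches to 5 motifs searched on both strands.
Klrc1: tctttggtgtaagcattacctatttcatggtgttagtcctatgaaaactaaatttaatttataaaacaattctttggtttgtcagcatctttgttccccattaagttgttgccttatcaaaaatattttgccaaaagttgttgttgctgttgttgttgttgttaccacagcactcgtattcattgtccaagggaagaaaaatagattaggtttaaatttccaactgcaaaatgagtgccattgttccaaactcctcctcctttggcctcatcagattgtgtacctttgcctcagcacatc
Klrc2: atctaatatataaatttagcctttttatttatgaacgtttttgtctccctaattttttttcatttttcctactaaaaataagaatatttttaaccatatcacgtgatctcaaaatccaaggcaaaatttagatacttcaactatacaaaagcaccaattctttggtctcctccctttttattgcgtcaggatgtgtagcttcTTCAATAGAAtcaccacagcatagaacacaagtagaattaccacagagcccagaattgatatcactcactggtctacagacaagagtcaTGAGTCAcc
The motifs were TTC and GAA separated by 4 bases of any kind, the spacing that STAT6 prefers downstream of IL-4, the same pair separated by 3 bases (TTCNNNGAA), the spacing of STAT5 downstream of IL-7, the AP-1 motif TGACTCA or TGAGTCA, the RUNX motif AACCACA or TGTGGTT, and the T-box motif AGGTGTGA or TCACACCT. The Klrc1 window held 0 matches. The Klrc2 window held 2: the first motif, at -48 from the start, and TGAGTCA, at 41 after it. Of all 32851 promoter windows in the table, 6.95% held the first motif, 8.3% the STAT5 spacing, 5.2% the AP-1 motif, 5.27% the RUNX motif and 1.28% the T-box motif. These matches are letters in a window and not measured binding.

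Klrg1 was low on naive arrays and varied among memory arrays. It read 5.98, 5.94, 4.97 and 6.91 in memory cells ex vivo, against 4.65 and 4.66 in naive cells ex vivo. All 4 memory arrays were higher, but they differed widely among themselves. The difference was 1.30 (SE 0.40, 95% interval 0.43 to 2.16, unadjusted p = 0.00631, adjusted p = 0.152). Without ex vivo memory array 3, the lowest of the 4, it was 1.62 (adjusted p = 0.0356), and without array 4, the highest, 0.98 (adjusted p = 0.215).

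In culture, Klrg1 read 4.75 and 5.76 in memory cells with IL-4 plus IL-7, 5.01 and 5.05 with IL-7, 4.86 and 5.07 with IL-4, and 4.74 and 5.56 in medium. These ranges all overlapped. On cultured naive arrays it read 4.58 to 4.73. The IL-4 differences were 0.22 (adjusted p = 0.858) and -0.19 (adjusted p = 0.914) in memory cells with and without IL-7 and -0.05 (adjusted p = 0.993) in naive cells, none past the test. Their 95% intervals are wide, at -0.77 to 1.22 for memory cells with IL-7, so changes inside them were not detectable with these arrays. Memory cells with IL-7 lay 0.92 below those ex vivo (adjusted p = 0.125), at 1.25 below them (adjusted p = 0.0281) without ex vivo array 3 and 0.60 below them (adjusted p = 0.256) without ex vivo array 4.

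The probe set shared by Klrb1b and Klrb1c stayed within 4.60 to 5.31 on all arrays, just above the filter value. It read 4.99 to 5.31 in memory cells ex vivo, against 4.62 and 4.78 in naive cells ex vivo (difference 0.44, SE 0.14, adjusted p = 0.159). Its IL-4 differences were -0.09 and -0.10 in memory cells with and without IL-7 and -0.08 in naive cells, none past the test. Its signal cannot be given to either gene.

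**Figure D3:**
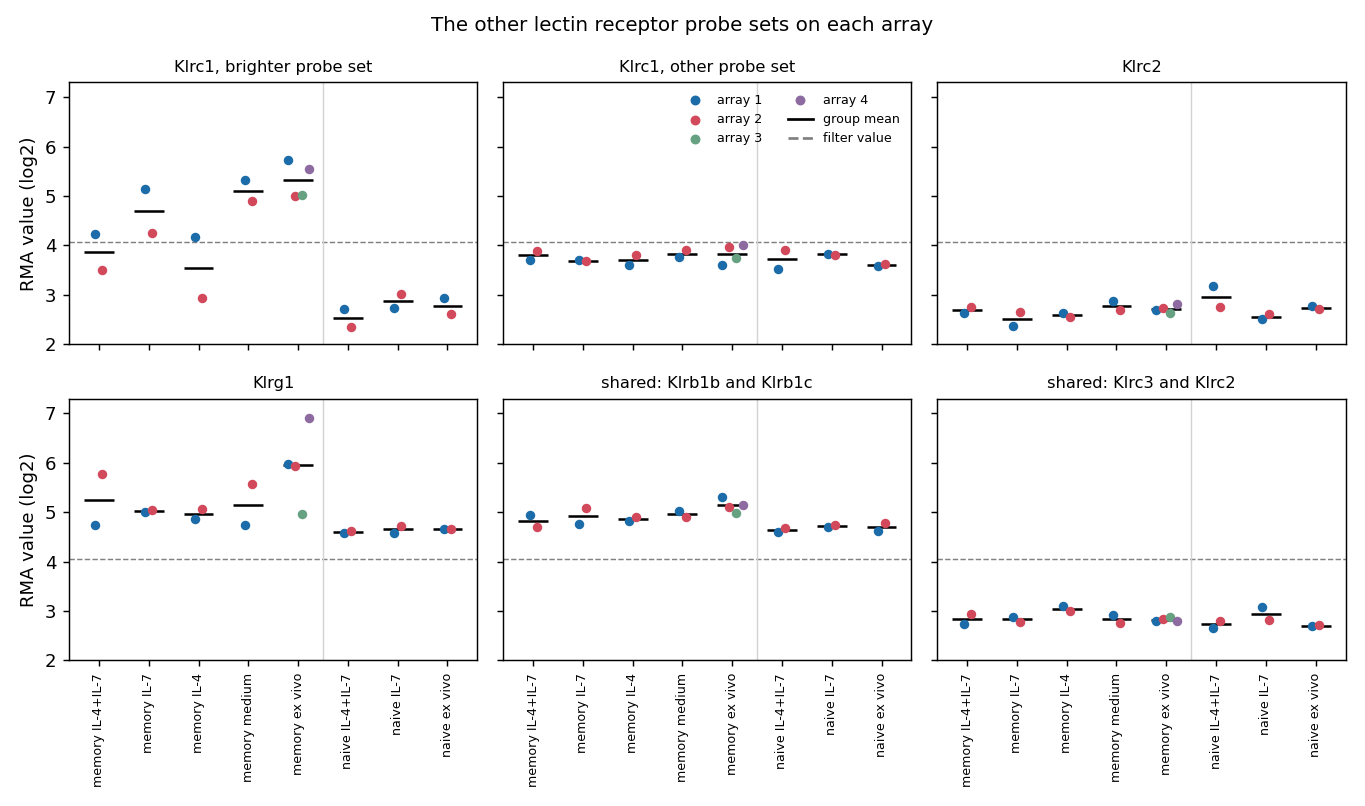
RMA values (log2, vertical axes) of the other member probe sets and of the shared probe sets on each array by group (horizontal axes), with points for arrays, black bars for group means and a dashed line at the filter value of 4.06. The brighter Klrc1 probe set reaches 5.72 in memory cells and stays at or under 3.01 on naive arrays, while both probe sets that carry Klrc2 stay under the line.

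Markers of NK cells, which also carry these receptors, were examined beside the members. For 9 of 14 listed genes with a probe set of their own, the array mean was 4.32 to 4.74 in memory cells ex vivo, against 4.04 to 4.05 in naive cells ex vivo. It was 4.08 to 4.31 on cultured memory arrays and 3.74 to 3.94 on cultured naive arrays. Of these 9 genes, 2 to 4 lay under the filter value on all arrays of a group. Ncr1, the NK receptor NKp46, read 4.08 to 4.79 over all 18 arrays, just above the filter value. Other listed genes differed more between memory and naive cells ex vivo. Tyrobp averaged 5.50 against 4.15, Klre1 5.63 against 4.99 and Klra8 3.70 against 2.52. The Klra8 memory arrays ran from 2.54 to 4.76. In that comparison 0 of the 7 tested NK markers were called, beside 1.24% of all probe sets, and their median difference was 0.42. The NK marker level thus moved with the memory arrays as Klrc1 and Klrg1 did, and its part in those results was not tested. In the memory comparisons in which Klrd1 fell, the NK marker mean was 4.16 and 4.11 with IL-4 plus IL-7, against 4.20 and 4.10 with IL-7, and 4.08 and 4.12 with IL-4, against 4.31 and 4.21 in medium. The first pair overlapped and the second did not. In the second, where 1.15% of all probe sets passed, Fcgr3 was 1 of 7 tested NK markers called. This Fc receptor gene, on both the NK and the myeloid list, had a difference of -1.52 (limma adjusted p = 0.00746). Its part in the Klrd1 result was not tested.

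Markers of B cells and of myeloid cells were also higher on the ex vivo memory arrays. The B cell array mean (5 of 6 genes) was 5.12 to 5.66 in memory cells ex vivo, against 4.73 and 4.73 in naive cells ex vivo, and 4.97 to 5.44 on cultured memory arrays, against 4.75 to 4.85 on cultured naive arrays. The myeloid mean (8 of 8 genes) was 4.34 to 4.48 in memory cells ex vivo, against 4.09 and 4.23 in naive cells ex vivo. Their part in the Klrc1 and Klrg1 differences was not tested.

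The genes whose 8 group means followed each member most closely were ranked by Pearson correlation among 4389 probe sets with a single symbol. These correlations share all their arrays and serve only as a description. For Klrd1 they were Ehd3 (r 0.992), an endocytic recycling ATPase, Dapl1 (0.991), Adh1 (0.984), an alcohol dehydrogenase, Atp8b4 (0.976) and Nqo2 (0.967), a quinone reductase. By rank correlation, Ehd3 and Nqo2 kept the same order of the 8 groups as Klrd1. For Klrc1 the closest was Klrk1 (0.9745), which encodes the activating receptor NKG2D and lies in the same gene cluster. Rhob (0.973), a small GTPase, and Gpr160 (0.969) followed. By rank correlation Klrk1 (0.905) was only at rank 27, behind Rhob and Gpr160 (0.952 each, rank 8).

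For Klrg1 they were Gda (0.979), a guanine deaminase, Kel (0.978), a red cell surface antigen, and Trim10 (0.976), known from red cell precursors. Each had a rank correlation of 0.929, at rank 11. Markers of red cell precursors, a list chosen after these values were seen, had array means of 6.98, 5.14, 5.53 and 5.42 in memory cells ex vivo, against 4.28 and 4.30 in naive cells ex vivo (9 of 11 genes). They were highest on ex vivo memory array 1, whereas Klrg1 was highest on array 4. On cultured arrays they were 4.50 to 5.30 in memory cells, against 4.01 to 4.18 in naive cells. In each cultured memory group array 1 was the higher, at 5.19 to 5.30, against 4.50 to 5.06 on array 2. Their part in the Klrg1 values was not tested.

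Ligands, adaptors and phosphatases that work with these receptors were taken as a list of 22 genes, of which 20 had a probe set of their own and 19 were tested. H2-T23, which encodes Qa-1, had none of its own. With IL-4, 2 rose and 0 fell in memory cells with IL-7, while 1 rose and 0 fell both in memory cells lacking IL-7 and in naive cells, where 1.6%, 1.15% and 0.68% of all probe sets passed. The list's median difference was 0.21 in memory cells with IL-7, 0.15 in those lacking it and 0.22 in naive cells, against 0.04, 0.02 and -0.00 over all probe sets tested. Memory against naive cells gave 1 higher and 0 lower ex vivo, with IL-7 and with both cytokines, beside 1.24%, 2.14% and 2.5% of all probe sets. The gene called in each of these was Cdh1.

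Cdh1 encodes E-cadherin, a ligand of KLRG1. In naive cells it read 6.66 and 5.75 with IL-4 plus IL-7, against 2.92 and 3.0 with IL-7. The arrays without IL-4 were under the filter value, those with it far above. Cdh1 rose by 3.24 (SE 0.37, adjusted p = 0.000487), 9.44-fold, and did so in every fit that left out 1 array (2.78 to 3.69).

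In memory cells with IL-7, Cdh1 read 8.63 and 8.54 with IL-4, against 6.94 and 7.02 without it (difference 1.61, SE 0.37, adjusted p = 0.0457). Without IL-7 it read 8.64 and 8.18 with IL-4, against 6.01 and 7.43 in medium (difference 1.69, SE 0.37, adjusted p = 0.0429). Both rises passed by a small margin. With no filter on low values the adjusted p was 0.0574 and 0.0555, and it ran up to 0.289 and 0.285 when 1 array was left out. The second difference was 2.40 (adjusted p = 0.00173) without medium array 2 and 0.98 (adjusted p = 0.0519) without medium array 1. The IL-4 difference in memory cells minus that in naive cells was -1.63 (SE 0.52, adjusted p = 0.445).

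Between cell types, Cdh1 read 7.06, 7.01, 7.08 and 7.47 in memory cells ex vivo, against 3.64 and 3.59 in naive cells ex vivo (difference 3.54, SE 0.32, adjusted p = 4.37e-05). All memory arrays were more than 3 units above the naive ones. The difference was 4.01 with IL-7 (adjusted p = 6.76e-05) and 2.39 with IL-4 plus IL-7 (adjusted p = 0.00437). The last had an adjusted p of 0.0523 without 1 array. KLRG1's ligand gene was called in all 3 comparisons of memory with naive cells. Klrg1 itself was called in none, though ex vivo all its memory arrays were higher than the naive ones (difference 1.30, 95% interval 0.43 to 2.16).

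Tap1, a subunit of the transporter that delivers peptides to class I molecules, was the other gene of the list called with IL-4. Its difference was 0.99 in memory cells with IL-7 (SE 0.22, adjusted p = 0.0394), 0.75 without IL-7 (adjusted p = 0.142) and 0.72 in naive cells (adjusted p = 0.252). The call was lost without any 1 of the 4 arrays compared (adjusted p up to 0.353). In culture with IL-7, 4 of the 19 list genes fell in memory cells and 1 of 19 in naive cells, and 0 rose, where 18.9% and 9.4% of all probe sets passed, so the list's share was not far from that of the array. The signalling adaptor gene Tyrobp fell by 1.24 in memory cells (adjusted p = 0.0278). It is also on the NK marker list, and its arrays of memory cells ex vivo ran from 4.78 to 6.61. The adaptor gene Hcst fell by 1.0 (adjusted p = 0.0361), the phosphatase gene Inpp5d by 0.89 (adjusted p = 0.00675) and the peptide-trimming gene Erap1 by 0.58 (adjusted p = 0.0335). Each of these 4 calls was lost in at least 2 of the 7 fits that left out 1 array. In naive cells Inpp5d fell by 0.77 (adjusted p = 0.0319), a call lost in 4 of 5 such fits.

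**Figure D4:**
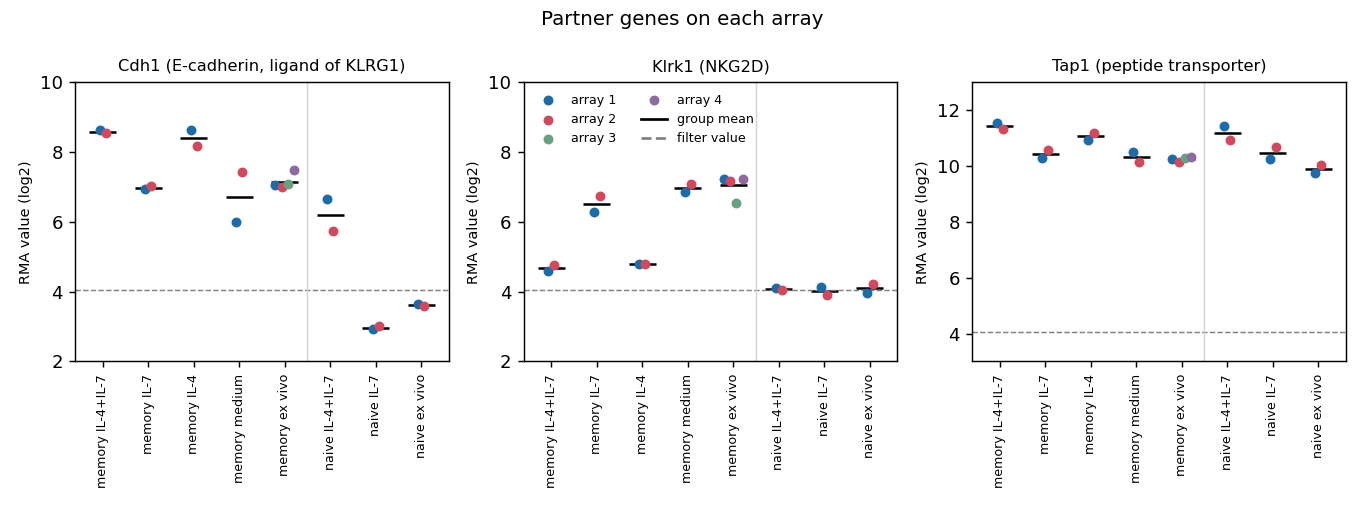
RMA values (log2, vertical axes, with a different range for Tap1) of Cdh1, Klrk1 and Tap1 on each array by group (horizontal axes), with points for arrays, black bars for group means and a dashed line at the filter value of 4.06. Cdh1 is at 5.75 and 6.66 in naive cells with IL-4 plus IL-7 and under the line on the other naive arrays, and Klrk1 stays between 3.91 and 4.21 on naive arrays.

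The other lectin receptors and ligands of the NK gene complex formed a list of 31 genes, of which 21 had a probe set of their own and 11 were tested. With IL-4, 0 rose and 1 fell in memory cells with IL-7 and without it, and 0 were called in naive cells, beside 1.6%, 1.15% and 0.68% of all probe sets. The gene that fell was Klrk1, at 4.60 and 4.76 with IL-4 plus IL-7, against 6.27 and 6.73 with IL-7, and at 4.80 and 4.78 with IL-4, against 6.85 and 7.07 in medium. In naive cells Klrk1 stayed at 3.91 to 4.21 in all 3 groups, around the filter value, where a fall could hardly be measured. Klrd1, by contrast with Klrk1, was far above the filter value in both cell types. Klre1, which encodes another lectin-like receptor of the same gene cluster and is also on the NK marker list, read 4.69 to 6.25 on memory arrays, against 4.24 to 5.05 on naive arrays, and Klrc3 read 2.61 to 3.08 on all arrays.

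Clec2i, a lectin-like ligand gene of the same complex, was the 1 list gene of 11 called in memory cells with IL-7 against ex vivo, where 18.9% of all probe sets passed. It read 6.40 and 6.12 with IL-7, against 5.17, 4.84, 5.34 and 4.85 ex vivo (difference 1.21, adjusted p = 0.0126). The groups did not overlap, and the call was lost in 2 of the 7 fits that left out 1 array. The medians of this list were -0.09, 0.07 and -0.08 in the 3 IL-4 comparisons, close to those of all probe sets.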

How the data were processed

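The authors deposited RMA output in log2 units, with 1 value for each probe set on each array. RMA and limma are named in the submitters' processing notes without versions, and further parameters are not given in the sources used here. Of 45101 probe sets, 64 array controls were left out. The platform annotation gave 34945 of the others 1 symbol, 932 several and 9160 none. A linear model of the 8 group means was fitted with limma 3.58.1 in R 4.3.3 over all 18 arrays (10 residual and 3.77 prior degrees of freedom), with 14 contrasts, two-sided moderated tests and Benjamini-Hochberg adjustment over the 29843 probe sets above the filter. The threshold was an adjusted p of 0.05. All own probe sets of the members were named, list genes by their brightest probe set, and like genes by Pearson r among single-symbol probe sets whose group means span at least 1 log2 unit. The members and lists were chosen with earlier results of these data known. The fit was tested on simulated data. Alternatives were no filter, 1 probe set per gene, a variance trend, a replicate block and leaving out 1 array. The arrays left out were those of the groups compared and, for every comparison, memory medium array 2. Replicate numbers were not used to pair arrays, since the design text gives 2 cultured populations of each cell type but no label says that a number marks one. The number of arrays limits the precision.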

Additional observations from a re-analysis of the deposited data

How the results depend on the processing

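For the tested members, 417 values were recomputed under alternatives and 45 changed their call or sign, 24 of 139 for Klrd1 and 21 of 278 for Klrc1 and Klrg1. Of them, 21 changed sign, none a called value. Of the arrays outside the compared groups, only memory medium array 2 was left out. The Klrd1 fall with IL-4 in IL-7-cultured memory cells kept its call in every alternative that was run (-3.26 to -2.29 without 1 array). Without a filter, memory against naive with IL-7 was 1.76 (adjusted p = 0.0567), and with 1 probe set per gene, memory in IL-7 against ex vivo was 1.05 (adjusted p = 0.0499). With the replicate block, the IL-4 differences of Klrd1 were -2.28 (adjusted p = 0.0696) in memory cells without IL-7 and -2.44 (adjusted p = 0.0667) in naive cells, and that of Klrc1 in memory cells without IL-7 was -1.56 (adjusted p = 0.0114). The block changed no other member call. It could not be fitted for memory against naive cells, since it is nested in cell type. Same-numbered arrays deviated together with correlations of 0.454 for the naive cultures and -0.0458 to 0.468 for the memory cultures. Leaving out 1 array in turn, Klrd1 ran from -3.07 to -1.49 for IL-4 in memory cells without IL-7, -2.64 to -2.23 for IL-4 in naive cells, -0.82 to 0.14 for memory minus naive response, -1.29 to 0.29 for the response with minus without IL-7, -0.24 to 1.34 and -0.43 to 0.53 for IL-7 without and with IL-4, -0.10 to 0.39, 1.55 to 1.97 and 0.93 to 1.90 for memory against naive ex vivo, with IL-7 and with both, and -0.29 to 1.29 and 0.99 to 1.11 for medium and IL-7 against ex vivo. Klrc1 ran from -0.85 to 0.037 and -0.30 to 0.94 for IL-7 without and with IL-4 and -0.062 to 0.27 for naive in IL-7 against ex vivo. Klrg1 ran from -0.28 to 0.73, -0.60 to 0.22 and -0.12 to 0.021 for IL-4 in memory cells kept with IL-7, without it and in naive cells, -0.24 to 0.78 and -0.094 to 0.92 for the memory minus naive response and the response with minus without IL-7, -0.53 to 0.29 and -0.21 to 0.80 for IL-7 without and with IL-4, and -0.069 to 0.072 for naive in IL-7 against ex vivo. The counts of probe sets called moved most: without 1 array, IL-4 gave 115 to 906 in memory cells with IL-7 (477 with all), 91 to 4376 without IL-7 (343) and 58 to 1000 in naive cells (203). Memory against naive gave 149 to 732 ex vivo (371), 148 to 1064 with IL-7 (638) and 106 to 1820 with both (746), and IL-7 against ex vivo 276 to 7431 in memory cells (5646) and 144 to 4893 in naive cells (2806). IL-7 without IL-4 gave 0 to 3975, medium against ex vivo 0 to 3849, the response with minus without IL-7 0 to 2065, memory minus naive response 1 to 590 (8) and memory minus naive culture 2 to 115 (7). With 1 probe set per gene, 249 passed for IL-4 added to memory cells with IL-7, 372 for memory against naive with IL-7, and 2744 and 1764 for memory and naive cells in IL-7 against ex vivo. With the block, 2960 passed for memory in IL-7 against ex vivo and 2 for memory minus naive response.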
